A study of Mus musculus with 6 samples.

Results

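The arrays described here compared 6G- BM-MDSC with DCs, which are 4 of the 6 arrays of the series, 2 for each group. They were taken by their titles, and no measured value chose them. 6G- BM-MDSC were grown from mouse bone marrow from which Ly-6G+ cells had been removed with an antibody and magnetic beads, and then kept for 4 days in GM-CSF at 40 ng/mL on tissue-culture-treated dishes. DCs were grown from bone marrow with 20 ng/mL GM-CSF for 8 days on dishes without that treatment. All marrow came from female C57BL/6J mice aged 6 to 8 weeks. The remaining 2 arrays held MDSC (conv.), grown like 6G- BM-MDSC but from whole marrow, and they entered the fit to share its estimate of the spread. The cells were not sorted after culture, so each array measured the RNA of a mixed culture. Neither the labels nor the methods tie the replicates to separate mice or cultures, so every p-value rests on a spread that may be technical and holds for these samples alone. The question behind the comparison was which genes set the suppressive cultures apart from another culture made with the same growth factor.

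GM-CSF drives marrow precursors towards granulocytes, monocytes, macrophages and dendritic cells. A granulocyte precursor first makes the proteases and myeloperoxidase of primary granules, then the proteins of secondary and tertiary granules, and at last the receptors of a mature neutrophil. Myeloid-derived suppressor cells (MDSC) are immature cells of the granulocytic and monocytic lines that restrain T cells, whereas dendritic cells take up antigen and show it to T cells on MHC class II molecules. Macrophages are known for complement C1q, scavenger receptors and cholesterol export.

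Levels are given as log2 of the processed intensity over the 75th percentile of the same array, so that a level of 0 lies at that percentile, and differences are those of 6G- BM-MDSC from DCs on this log2 scale. Levels of different genes were not compared, since each probe has its own brightness. Of 21862 genes tested with limma at an adjusted p under 0.05, 3282 (15%) had the higher level in 6G- BM-MDSC and 3889 (17.8%) the higher level in DCs. All counts of list members below are to be read beside these shares. A difference of at least 2-fold was found for 1172 genes (5.36%) upwards and 1001 genes (4.58%) downwards, and one of at least 8-fold for 167 and 60 genes. The arrays of both groups did not overlap for 72.8% of genes, so a lack of overlap by itself sets no gene apart. Arrays of the same group correlated across genes with a Pearson's r of 0.995 and those of 6G- BM-MDSC and DCs with 0.971 to 0.975. Between 6G- BM-MDSC and DCs, the depletion, the GM-CSF dose, the days of culture and the dish differed together. DCs also lay in another row of the slide than both MDSC groups, so these cannot be told apart in this comparison. MDSC (conv.) had the dose, days and dish of 6G- BM-MDSC without the depletion, and both are compared below. In such cultures, fewer cells of a type and less RNA per cell cannot be told apart either.

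Genes of granulocytes were among the largest differences upwards. Of 9 tested genes of neutrophil primary granules, 7 were higher in 6G- BM-MDSC and 0 were lower. Mpo, which encodes myeloperoxidase, stood at 7.11 and 7.17 in 6G- BM-MDSC and at 2.78 and 2.94 in DCs, a difference of 4.28 ± 0.09 (SE; adjusted p = 0.000214) or 19.4-fold. The serine proteases Ctsg, Prtn3 and Elane differed by 4.04 ± 0.10, 3.85 ± 0.12 and 3.62 ± 0.10. Elane, neutrophil elastase, stood at 5.82 and 5.78 against 2.08 and 2.30. Srgn, the proteoglycan that packs granule proteins, differed by 0.38 ± 0.10, and Ctsc, which activates the granule proteases, by 0.62, which did not pass. Another of the 3 probes of Srgn gave -0.57, which did not pass. On the brightest probes, the enzymes stored in the granule thus differed by far more than its matrix protein and its activating protease.

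Of 18 genes of secondary and tertiary granules, 15 were higher and 0 were lower. Ltf, which encodes lactoferrin, stood at 7.86 and 8.03 in 6G- BM-MDSC against 4.05 and 3.71 in DCs, a difference of 4.07 ± 0.14. Camp, the cathelicidin precursor, differed by 4.35 ± 0.13, Lcn2, which binds bacterial siderophores, by 3.77 ± 0.10 and Ngp by 3.11 ± 0.10. Mmp9, the gelatinase of tertiary granules, stood at 3.55 and 3.56 against -1.65 and -1.96, a difference of 5.36 ± 0.15 or 41.0-fold. Olfm4 was not well above background on either array of DCs and was higher by at least 6.53-fold in 6G- BM-MDSC. Lyz2 (0.03), Anxa1 (0.12) and B4galt1 (0.05) did not pass the test. DCs had every tested gene of the primary granules and all but Olfm4 of this list well above background on both arrays.

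Of 28 neutrophil surface and maturation genes, 21 were higher and 2 were lower. Retnlg, a resistin-like secreted protein, gave the largest difference among genes above background in both groups, at 3.41 and 3.44 against -2.61 and -2.57 (6.01 ± 0.11, 64.6-fold). Ly6g, the target of the depleting antibody, stood at 1.71 and 1.86 after culture in 6G- BM-MDSC, at 1.95 and 1.96 in MDSC (conv.) and at -1.94 and -2.19 in DCs. It was thus 14.4-fold above DCs (3.85 ± 0.11, adjusted p = 0.000214), while 6G- BM-MDSC and MDSC (conv.) differed by -0.17 (adjusted p = 0.626). The formyl peptide receptors Fpr1 and Fpr2 differed by 3.36 ± 0.11 and 2.70 ± 0.10 and Padi4, which citrullinates histones, by 2.74 ± 0.12. A second probe of Slpi gave 0.47 in place of 3.40. S100a8 differed by 0.85 ± 0.12 and S100a9, its partner in calprotectin, by 0.13, which did not pass. The stefins Stfa1 and Stfa3, inhibitors of cysteine proteases, were lower by 0.95 ± 0.11 and 1.17 ± 0.07 (differences of -0.95 and -1.17), but their probes can share signal with near-identical neighbouring genes.

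**Figure D1:**
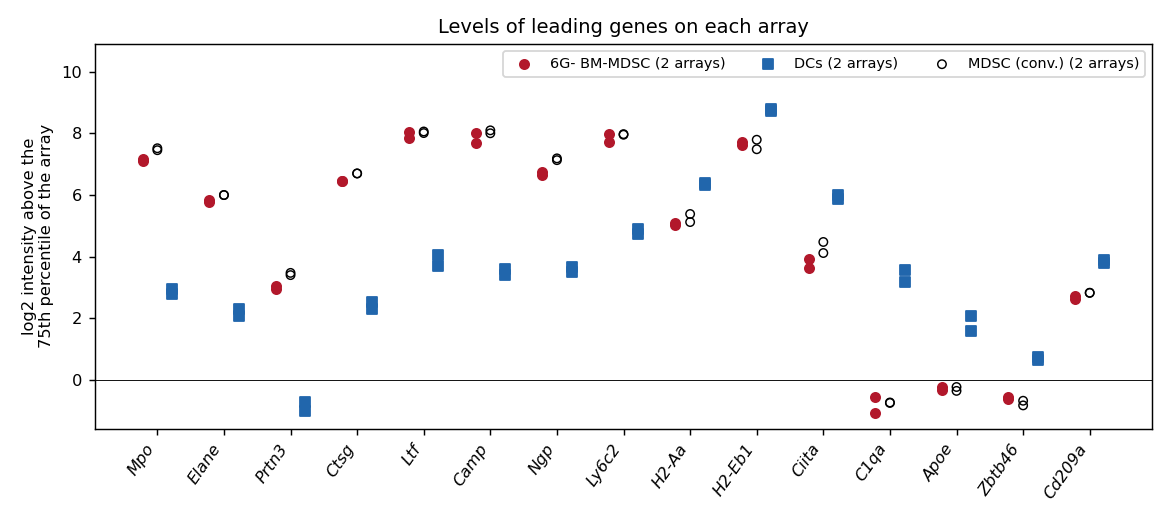
Levels of 15 genes on each array, as log2 intensity above the 75th percentile of the array; filled circles are the 2 arrays of 6G- BM-MDSC, squares the 2 arrays of DCs and open circles the 2 arrays of MDSC (conv.). Granule genes such as Mpo (7.11 and 7.17 against 2.78 and 2.94) stood above DCs and MHC class II, C1q and dendritic cell genes below them; heights of different genes are not comparable.

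Among 20 monocyte genes, 10 were higher and 3 were lower. The Ly-6C genes Ly6c2 and Ly6c1 differed by 3.03 ± 0.12 and 2.74 ± 0.11, with Ly6c2 at 7.71 and 7.98 against 4.74 and 4.89. Vcan, the proteoglycan versican, was higher by 2.73 ± 0.08 and Pglyrp1, a peptidoglycan receptor that is also on the list of secondary and tertiary granules, by 3.37 ± 0.10. Cx3cr1, the fractalkine receptor, was higher by 2.07 ± 0.35, with the DCs at -1.76 and -0.73. On their brightest probes, Ccr2 (-0.06), Csf1r (-0.16), F13a1 (0.33) and Cd14 (0.21) did not pass. Other probes reached 1.68 for F13a1 and -0.70 for Csf1r. The genes of this list thus did not move as a block. Without any single array, 7 to 10 were higher and 1 to 2 lower. Itgam, which encodes CD11b, was higher by 0.45 ± 0.11, and Ptprc, which encodes CD45, differed by 0.22 (adjusted p = 0.101).

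Genes of immature stages were also mostly higher. Of 21 promyelocyte and progenitor genes, 13 were higher and 2 were lower, with 9 to 11 higher and 1 to 2 lower when any single array was left out. Ms4a3, a marker of granulocyte and monocyte progenitors, stood at 5.04 and 5.11 against 1.51 and 1.70 (3.47 ± 0.09). Ctla2a differed by 3.70 ± 0.36, Fcnb, a ficolin of promyelocytes, by 2.84 ± 0.08 and Myb, which keeps progenitors cycling, stood at 2.24 and 2.11 against 0.88 and 0.48. The stem cell regulators Hlf and Erg were not well above background in DCs and were at least 2.22-fold and at least 4.76-fold higher. In the other direction, Cd34 was lower, at 2.23 and 1.83 against 4.25 and 3.67 (-1.93 ± 0.24), and so was Sox4 (-0.71 ± 0.11). Kit, the receptor of stem cell factor, differed by 0.77 ± 0.16. Flt3, the receptor that drives dendritic cell precursors, was higher by 0.50 ± 0.09 on its brightest probe but lower on its second probe, which also passed, so no direction is given for it.

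Transcription factors of myeloid fates differed in both directions. Of 31 fate factors, 10 were higher and 12 were lower. When any single array of the 4 was left out, 4 to 9 were higher and 8 to 11 lower. Gfi1, a repressor needed for neutrophil formation, stood at 2.62 and 2.48 against -0.75 and -0.58 (3.21 ± 0.11). Cebpe, which drives the secondary granule genes, differed by 2.24 ± 0.13 and Id3, an inhibitor of E proteins, by 3.61 ± 0.27. Cebpb and Cebpd were higher by 0.74 ± 0.15 and 0.86 ± 0.13, Spi1, which encodes PU.1, by 0.42 ± 0.10, and Cebpa was lower (-0.49 ± 0.07). The dendritic cell factors Zbtb46, Irf8 and Irf4 differed by -1.29 ± 0.09, -1.26 ± 0.14 and -0.96 ± 0.09. Runx3, Bcl6, Spib, Relb and Id2 were lower too, by -0.44 to -1.08. Batf3, needed for cross-presenting dendritic cells, differed by -0.31 and Runx1 by 0.09, and neither passed.

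**Figure D2:**
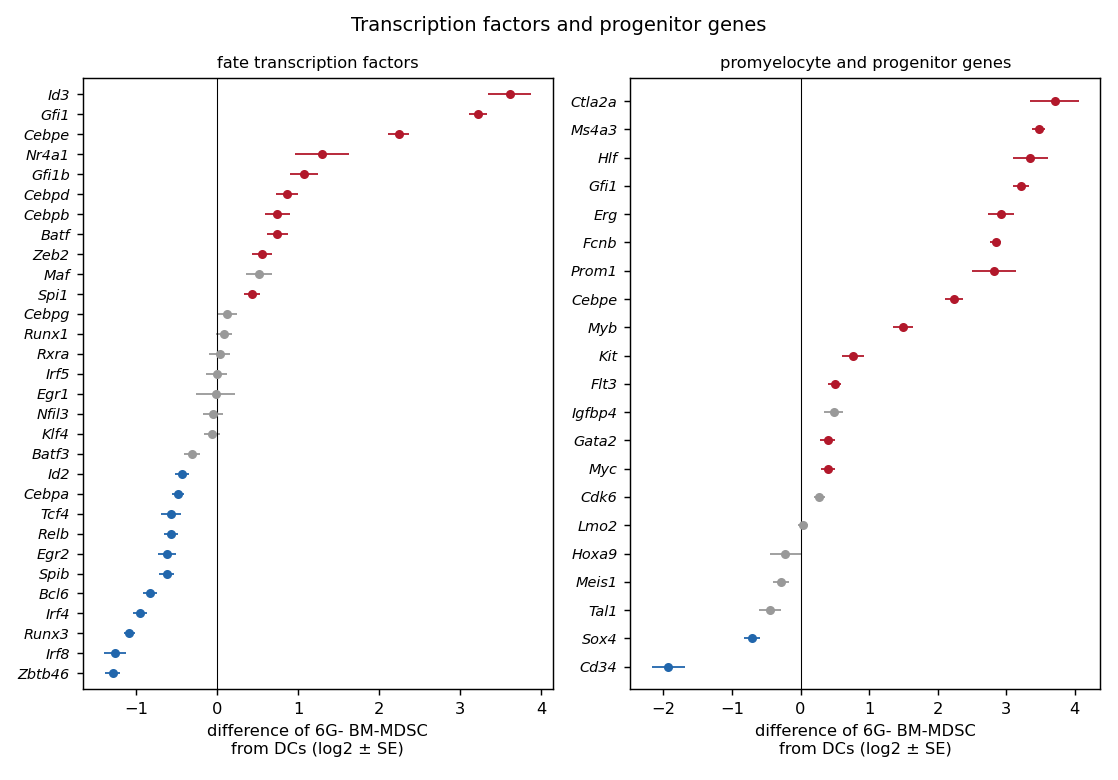
Differences of 6G- BM-MDSC from DCs (log2 ± SE, limma on 6 arrays) for 30 fate transcription factors, left, and 21 promyelocyte and progenitor genes, right; red points were higher and blue points lower at an adjusted p under 0.05, and grey points did not pass. Id3, Gfi1 and Cebpe lie farthest right on the left panel and Zbtb46, at -1.29, farthest left; for genes not well above background in DCs (Hlf, Erg, Prom1) the point is no bound.

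MHC class II genes were lower in 6G- BM-MDSC. Of 13 tested genes of this pathway, 12 were lower and 0 higher, with a median difference of -1.09 against -0.04 over all genes tested. Ciita, the master activator of the class II genes, gave the largest difference, at 3.93 and 3.65 in 6G- BM-MDSC and 6.01 and 5.86 in DCs (-2.14 ± 0.17, adjusted p = 0.00159). The H2-O chains H2-Ob and H2-Oa, which restrain peptide loading, differed by -2.02 ± 0.08 and -1.49 ± 0.15, and the H2-M chains H2-DMb2, H2-DMb1 and H2-DMa, which carry it out, by -1.84 ± 0.10, -1.48 ± 0.10 and -0.97 ± 0.08. Of the chains that hold the peptide, H2-Aa differed by -1.30 ± 0.11, H2-Eb1 by -1.09 ± 0.13 and the brightest of 4 probes of H2-Ab1 by -0.57 ± 0.09, where its other probes reached -1.89. Cd74, the invariant chain, differed by -0.64 ± 0.07, and Ifi30, a lysosomal thiol reductase, by 0.33, which did not pass. Probes of the H2 family can share signal between near-identical copies.

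The starts of these genes are shown because these genes were lower together. A CCAAT box on either strand (CCAAT, or ATTGG on the other strand) is part of the known class II promoter, and C/EBP factors, which act in granulocytes, bind paired short sites (GCAAT, or ATTGC on the other strand). RefSeq promoter windows on GRCm38.p6 were found for 10 of the 13 class II genes. In the 150 bases before the start, 7 of these 10 genes held CCAAT on either strand and 0 held GCAAT, where 24.5% and 13.9% of all 32851 promoter windows of that length did. Written 5′ to 3′ on the strand of the gene, with the matching letters in capitals, the windows are as follows.
H2-Aa (chr17:34287824-34287973, minus strand): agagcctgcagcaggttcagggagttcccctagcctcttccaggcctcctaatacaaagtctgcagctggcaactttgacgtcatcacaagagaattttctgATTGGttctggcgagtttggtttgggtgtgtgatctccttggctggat
H2-Eb1 (chr17:34305717-34305866, plus strand): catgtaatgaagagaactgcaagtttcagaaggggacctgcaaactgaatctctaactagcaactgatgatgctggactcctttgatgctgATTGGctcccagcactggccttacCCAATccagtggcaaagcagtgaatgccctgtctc
H2-DMb1 (chr17:34153041-34153190, plus strand): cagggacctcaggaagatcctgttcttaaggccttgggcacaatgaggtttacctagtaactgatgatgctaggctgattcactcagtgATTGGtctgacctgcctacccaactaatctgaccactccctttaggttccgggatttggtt
H2-DMb2 (chr17:34145099-34145248, plus strand): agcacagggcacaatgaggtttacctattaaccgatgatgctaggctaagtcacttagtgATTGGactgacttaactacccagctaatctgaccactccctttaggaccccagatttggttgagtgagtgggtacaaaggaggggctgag
H2-Ob (chr17:34238755-34238904, plus strand): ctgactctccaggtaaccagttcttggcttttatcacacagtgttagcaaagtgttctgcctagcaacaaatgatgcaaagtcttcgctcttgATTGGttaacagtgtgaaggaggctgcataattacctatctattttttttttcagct
In all 5 windows the match read ATTGG at least once, and H2-Eb1 held a second match as CCAAT. For H2-Aa, H2-DMb1, H2-DMb2 and H2-Ob the match began 48, 61, 90 and 57 bases before the start. Ctss, Ifi30 and H2-DMa, in both of its windows, held neither motif in these bases, and of these Ctss and H2-DMa were lower (differences of -0.60 ± 0.16 and -0.97 ± 0.08).

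The same search was made in granule genes, beside the 24.5% of all windows that held CCAAT and the 13.9% that held GCAAT. Of 8 primary granule genes with a window, 0 held CCAAT and 3 held GCAAT on either strand, and of 16 secondary and tertiary granule genes with a window, 3 held CCAAT and 5 held GCAAT. The windows of Mpo and Elane, the genes with the best-known granule proteins, and of Ltf, which held both motifs side by side, are shown in the same way.
Mpo (chr11:87793634-87793783, plus strand): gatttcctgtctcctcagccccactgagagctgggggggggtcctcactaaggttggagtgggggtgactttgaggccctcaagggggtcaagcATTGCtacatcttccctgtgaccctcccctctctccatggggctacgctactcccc
Elane (chr10:79886162-79886311, plus strand): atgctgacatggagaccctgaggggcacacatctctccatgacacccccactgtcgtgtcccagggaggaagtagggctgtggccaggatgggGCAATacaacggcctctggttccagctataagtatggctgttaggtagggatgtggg
Ltf (chr9:111019142-111019291, plus strand): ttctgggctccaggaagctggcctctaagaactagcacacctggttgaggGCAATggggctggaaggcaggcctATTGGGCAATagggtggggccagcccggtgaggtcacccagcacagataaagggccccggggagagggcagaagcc
The match began 56 bases before the start in Mpo and 57 bases before it in Elane. The third primary granule gene with GCAAT, Cstdc4, differed between the cultures by 0.28, which did not pass, and Prtn3 and Ctsg, which were higher by 3.85 and 4.04, held neither motif. These matches are letters in a window and no evidence of binding.

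Genes that mark dendritic cells were lower by smaller steps. Of 24 tested identity genes, 18 were lower and 2 were higher, and 11 to 13 were lower and 1 higher when any single array was left out. Itgax, which encodes CD11c, stood at 5.49 and 5.23 against 6.28 and 6.20 (-0.88 ± 0.11), Cd209a, a C-type lectin of marrow-derived dendritic cells, differed by -1.17 ± 0.08 and Cd209d, a related lectin, by -1.35 ± 0.21. Clec9a, a receptor of cross-presenting dendritic cells, was higher, at -1.33 and -1.13 against -2.76 and -2.89 (1.59 ± 0.12), and the other higher gene was Flt3, whose probes disagree. Xcr1, another receptor of those cells, was not well above background in any group. As a check of the DC label, Itgax, Zbtb46, Ccr7 and the MHC class II genes were well above background on both arrays of DCs, but they were so in 6G- BM-MDSC too.

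Of 28 maturation genes, 20 were lower and 2 were higher, and 10 to 18 were lower and 1 to 2 higher when any single array was left out. Fscn1, which bundles actin in mature dendritic cells, differed by -1.18 ± 0.09, the costimulatory ligands Cd80 and Cd86 by -0.80 ± 0.10 and -0.72 ± 0.10, and Cd83 by -0.95 ± 0.16. Ccr7, which guides dendritic cells to lymph nodes, stood at 7.22 and 6.99 against 7.55 and 7.75 (-0.55 ± 0.13). Both subunits of interleukin 12 parted. Il12b, the p40 subunit, stood at -1.99 and -1.66 against 0.64 and 0.72 (-2.50 ± 0.20, adjusted p = 0.00178). Il12a, the p35 subunit, stood at -2.41 and -2.47 in 6G- BM-MDSC and was not well above background in DCs, at least 5.16-fold higher (adjusted p = 0.000214). Cd40 differed by -0.31 and Tnfrsf9 by -0.67, and neither passed.

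**Figure D3:**
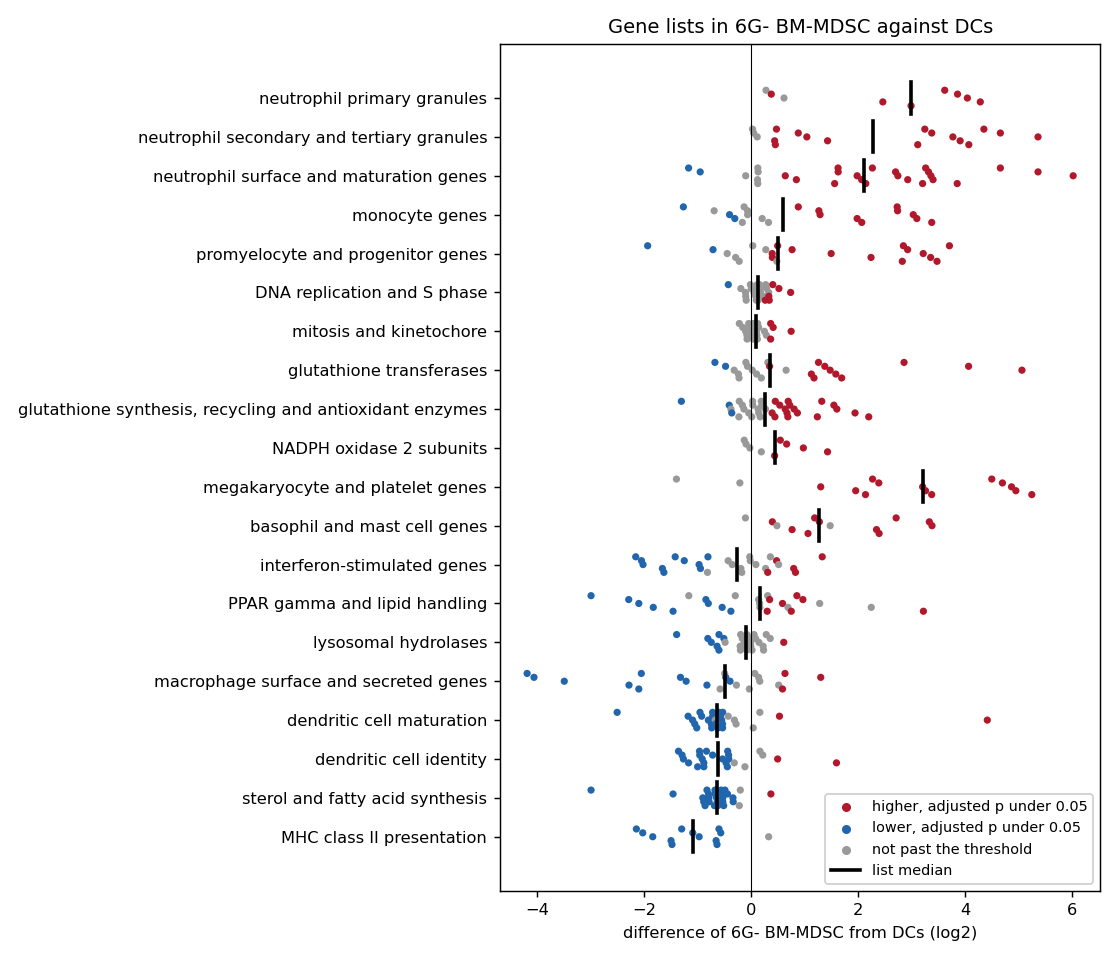
Differences of 6G- BM-MDSC from DCs (log2) for the tested members of 20 gene lists, one point for each gene, red if higher and blue if lower at an adjusted p under 0.05 and grey otherwise; the black bar is the list median. MHC class II (12 of 13 lower) and sterol and fatty acid synthesis (24 of 27 lower) lie to the left, and granule genes to the right; points of genes not well above background in DCs are not bounds.

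Macrophage genes held some of the largest differences downwards. Of 22 tested macrophage genes, 11 were lower and 3 were higher, with 1 to 4 higher and 7 to 10 lower when any single array was left out. The chains of complement C1q fell together, with C1qa at -1.08 and -0.54 against 3.18 and 3.56 (-4.18 ± 0.22, 18.1-fold lower), C1qc differing by -4.05 ± 0.13 and C1qb by -3.49 ± 0.10. Mertk, a receptor for dying cells, differed by -1.32 ± 0.10, Marco, a scavenger receptor, by -1.21 ± 0.32 and Siglec1, which was well above background on 1 array of 6G- BM-MDSC, by -2.05 ± 0.34. Fcgr1, the high-affinity receptor for IgG, differed by -0.82 ± 0.10 and Adgre1, a classic macrophage marker, by -0.47 ± 0.12. Mrc1 (-0.03), Cd68 (0.07), Trem2 (-0.27) and Gpnmb (-0.49) did not pass, and Msr1 and Cd36 were higher by 0.63 ± 0.11 and 0.59 ± 0.10. Cd163, Timd4 and Vsig4 were not well above background in any group. Against 17.8% lower and 15% higher over all genes tested, 7 of 28 lysosomal genes were lower and 1 was higher. Atp6v0d2, a proton pump subunit of macrophages and osteoclasts, led them at 1.81 and 1.89 against 3.13 and 3.35 (-1.39 ± 0.11), followed by Psap (-0.81 ± 0.08) and Lgmn (-0.74 ± 0.14). With any single array left out, 2 to 5 lysosomal genes were lower.

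The genes that make sterols and fatty acids were lower almost throughout. Of 27 tested genes, 24 were lower and 1, Hsd17b7, was higher, and 19 to 21 were lower when any single array was left out. Their median difference was -0.63, against -0.04 over all genes tested. Among the genes that were lower, each step apart from Scd1 and Scd2 was under 2-fold, with Sqle, the squalene epoxidase, at 3.45 and 3.65 against 4.47 and 4.43 (-0.90 ± 0.09). Idi1, an early isoprenoid enzyme, stood at 3.64 and 3.63 against 4.55 and 4.49 (-0.88 ± 0.07). Srebf2, which turns on this pathway, differed by -0.86 ± 0.10, Srebf1 by -0.56 ± 0.08 and Fasn, the fatty acid synthase, by -0.67 ± 0.09. Scd1, which puts a double bond into fatty acids, stood at -2.15 and -2.03 against 0.72 and 1.08 (-2.99 ± 0.14, adjusted p = 0.000451) and Scd2 differed by -1.46 ± 0.12. Acly (-0.20) and Mvd (-0.22) did not pass.

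MDSC (conv.) stood between both cultures in many of these genes. Comparing MDSC (conv.) with DCs, 13 of the 27 were lower and 1 was higher, with a median of -0.29. Over all genes that comparison gave 15.8% lower and 13.4% higher, with 3.77% and 5.33% differing by at least 2-fold. Between 6G- BM-MDSC and MDSC (conv.), 0 of the 27 passed the adjusted test. At an unadjusted p under 0.05, 25 of the 27 were lower in 6G- BM-MDSC and 0 higher, where 6.61% of all genes were lower and 4.18% higher at that level, and the differences ran from -1.05 to -0.02. Scd1 stood at -1.09 and -0.99 in MDSC (conv.), and Sqle at 3.97 and 3.95.

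Genes that take up, store and export lipids did not follow a single direction, where 15% of all genes tested were higher and 17.8% lower. Of 25 tested, 7 were higher and 9 were lower, with 3 to 5 higher when any single array was left out. Dgat2, which makes triglycerides, stood at 4.40 and 4.47 against 1.13 and 1.31 (3.22 ± 0.10), and Acsl1, Angptl4 and Pparg itself were higher by 0.97 ± 0.09, 0.86 ± 0.16 and 0.75 ± 0.14. The cholesterol exporters Abca1 and Abcg1 differed by -1.83 ± 0.14 and -0.84 ± 0.09, the lipoprotein Apoe by -2.10 ± 0.17, and the desaturases Fads2 and Fads1 by -2.28 ± 0.09 and -0.80 ± 0.08. Fabp4, a classic target of PPAR gamma, differed by -1.16 and Nr1h3, which encodes LXR alpha, by 0.69, and neither passed.

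**Figure D4:**
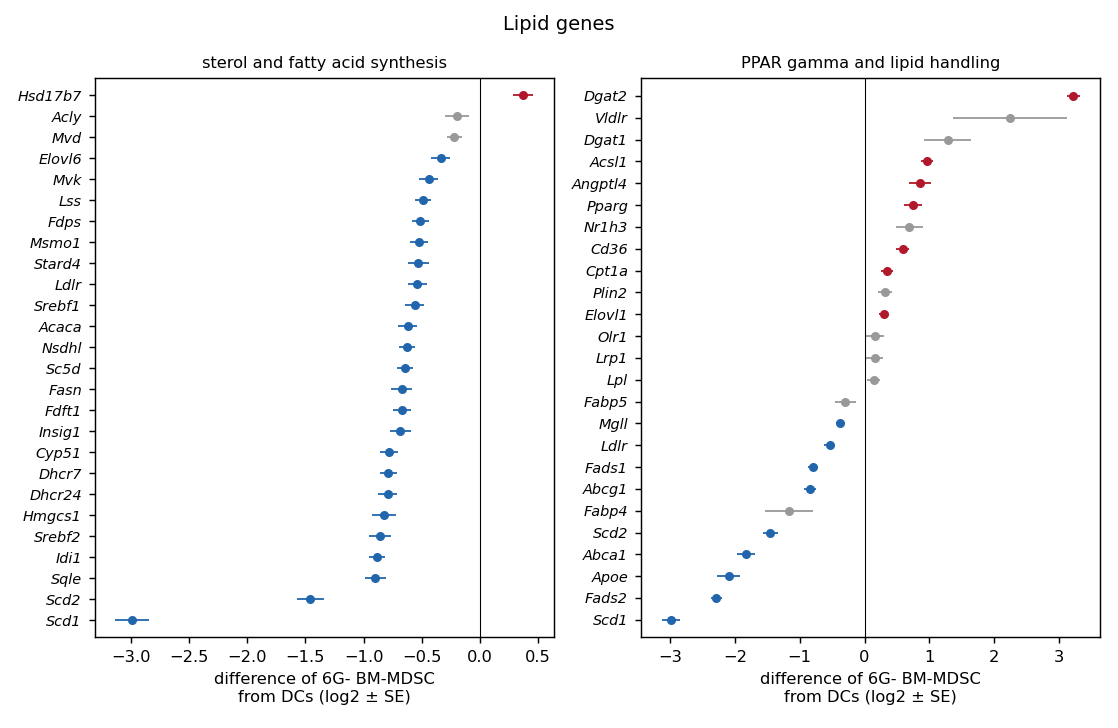
Differences of 6G- BM-MDSC from DCs (log2 ± SE, limma on 6 arrays) for 26 genes of sterol and fatty acid synthesis, left, and 25 genes of lipid handling, right; red was higher, blue lower and grey did not pass at an adjusted p under 0.05. On the left 23 of the genes drawn were lower, down to Scd1 at -2.99, and on the right Dgat2 (3.22) and Scd1 mark the ends.

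Glutathione genes, which the study compared between 6G- BM-MDSC and MDSC (conv.), were more often higher than lower against DCs. Of 23 tested glutathione transferases, 11 were higher and 2 were lower, with 1 to 2 lower when any single array was left out. Against DCs, MDSC (conv.) had 10 of these transferases higher and 2 lower. The study singled out Gstt1 and Gstt4 on these same arrays. Gstt1, of the theta class, stood at 2.81 and 2.57 in 6G- BM-MDSC, 0.64 and 1.04 in MDSC (conv.) and -1.47 and -1.27 in DCs. It was 16.7-fold above DCs (4.06 ± 0.18, adjusted p = 0.000364), and above MDSC (conv.) by 1.85 (adjusted p = 0.181). Gstt4 stood at -1.51 and -1.60, was not well above background in DCs and was at least 9.53-fold higher than there (adjusted p = 0.00117). The mu class genes Gstm1, Gstm3, Gstm4 and Gstm6 were higher by 1.18 to 1.48 and the microsomal Mgst1 and Mgst2 by 1.13 ± 0.15 and 1.69 ± 0.16, where mu class probes can share signal. Gsto1 and Gstk1 were lower (-0.48 ± 0.08 and -0.68 ± 0.09), and the theta class genes Gstt2 (0.65) and Gstt3 (0.31) did not pass.

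Of 35 genes that make, recycle or complement glutathione, 17 were higher and 3 were lower, with 13 higher and 1 to 2 lower when any single array was left out. MDSC (conv.) had 16 of these genes higher than DCs and 4 lower. Gsr, which regenerates glutathione, stood at 6.44 and 6.61 in 6G- BM-MDSC against 4.16 and 4.50 (2.20 ± 0.19). Nqo1 and Gclm, known targets of NRF2, were higher, Gclm by 1.24 ± 0.08 and Nqo1 at 0.81 and 0.70 against -0.63 and -1.06, Gclc, the catalytic partner of Gclm, by 0.45 ± 0.10, and Hmox1, a further target, by 0.03, which did not pass. Sod2, the mitochondrial superoxide dismutase, was higher by 1.32 ± 0.12, G6pdx and Pgd, which supply NADPH, by 0.69 ± 0.08 and 0.87 ± 0.10, and Dpep2, a dipeptidase, was lower (-1.30 ± 0.08). Of 9 genes of NADPH oxidase 2, 5 were higher and 0 lower, and 3 to 4 were higher when any single array was left out. MDSC (conv.) against DCs also gave 5 higher and 0 lower. Cybb, which encodes the catalytic subunit gp91phox of the oxidase, stood at 3.80 and 3.89 in 6G- BM-MDSC against 2.44 and 2.39 (1.43 ± 0.08). Ncf4, Ncf1, Rac2 and Cyba were higher by 0.98, 0.66, 0.55 and 0.44.

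Of 25 tested molecules with a known suppressive role, 7 were higher and 3 were lower, beside 15% and 17.8% of all genes tested. Arg2, the mitochondrial arginase, stood at 1.82 and 2.08 against -0.78 and -0.68 (2.68 ± 0.16), and Nt5e, which makes adenosine, differed by 1.64 ± 0.24. Ptgs2, cyclooxygenase 2, stood at -2.33 and -2.38 against -4.73 and -4.48 (2.25 ± 0.10). Its level in DCs lay near the background, and its difference was as low as 1.02 in other fits. Vsir, which encodes the checkpoint ligand VISTA, was higher by 0.86 ± 0.09 and Il4i1, an amino acid oxidase, was lower (-0.78 ± 0.15). Between 0 and 4 of the list were lower when any single array was left out. Nos2 stood at -2.11 and -2.05 against -2.06 and -2.09 and did not pass (-0.01 ± 0.33), and neither did Cd274, which encodes PD-L1 (-0.17). Arg1 and Il10 were not well above background in any group. Rb1, the retinoblastoma gene, stood at 3.00 and 3.11 against 2.68 and 2.83 (0.30 ± 0.10, adjusted p = 0.0724).

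Chemokine genes differed in both directions. Of 20 tested ligands, 8 were higher and 6 were lower, with 3 to 5 lower when any single array was left out. Cxcl2 and Cxcl3, which attract neutrophils, differed by 2.17 ± 0.38 and 2.45 ± 0.29, Cxcl5 was not well above background in DCs and was at least 3.66-fold higher, and Ppbp, a platelet chemokine, stood at 3.72 and 3.72 against -1.32 and -0.62 (4.69 ± 0.25). Cxcl1 differed by 1.78, which did not pass. Ccl24, which attracts eosinophils, was higher by 3.24 ± 0.17 and Ccl3 by 1.16 ± 0.15. Ccl5, Ccl17, Ccl22, Ccl7, Ccl12 and Cxcl16 were lower, with differences between -0.53 and -1.23. Among 15 receptors, 7 were higher and 2 were lower, with 1 to 2 lower when any single array was left out. Cxcr2, the receptor of Cxcl2 and Cxcl3, stood at 1.36 and 1.33 against -0.85 and -0.99 (2.27 ± 0.09), Ccr9 was higher by 1.73 ± 0.11, and Ccr6 was lower (-1.54 ± 0.14). Ccr2 and Cxcr4 differed by -0.06 and 0.05 and did not pass.

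Of 17 tested cytokines, 8 were higher and 4 were lower, with 5 to 9 higher and 2 to 4 lower when any single array was left out. Il1b stood at 3.24 and 3.34 in 6G- BM-MDSC and at -0.29 and 1.28 in DCs, whose arrays lay far apart (2.80 ± 0.52). Il1a was higher by 1.77 ± 0.11, Tnf by 1.08 ± 0.08, Il6 by 1.06 ± 0.09 and Il1rn, the natural antagonist of interleukin 1, by 1.02 ± 0.19. Il18 and Il15 were lower (-0.84 ± 0.13 and -0.60 ± 0.10). Among 29 receptors of cytokines and growth factors, 7 were higher and 10 were lower, and 1 to 4 were higher and 5 to 7 lower when any single array was left out. Il18r1, the interleukin 18 receptor, stood at -0.38 and -0.17 against 1.58 and 2.03 (-2.08 ± 0.20) and Il1r1, the signalling interleukin 1 receptor, differed by -1.51 ± 0.19, while the decoy Il1r2 was higher by 0.64 ± 0.11. The receptors of the growth factors used or made in such cultures, Csf2ra (0.05), Csf2rb (-0.18), Csf1r (-0.16) and Csf3r (-0.10), did not pass on their brightest probes. Other probes reached -0.76 for Csf2rb and -0.70 for Csf1r.

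**Figure D5:**
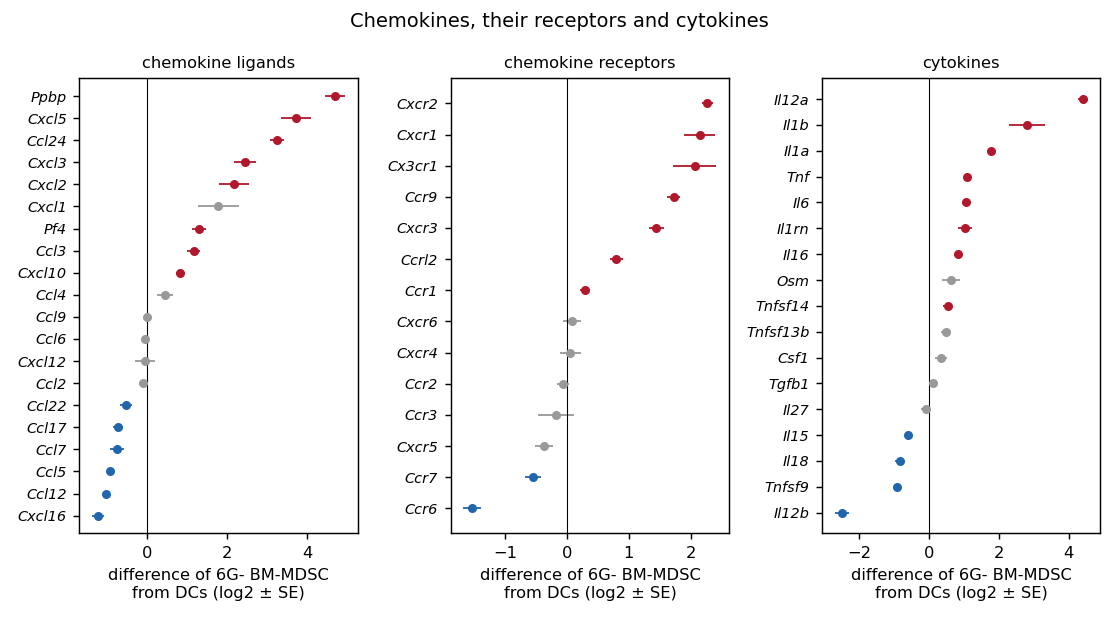
Differences of 6G- BM-MDSC from DCs (log2 ± SE, limma on 6 arrays) for 20 chemokine ligands, 14 chemokine receptors and 17 cytokines; red was higher, blue lower and grey did not pass at an adjusted p under 0.05. Ppbp (4.69) and Cxcr2 (2.27) top their panels, Il12a and Il12b lie at opposite ends of the cytokines, and the points of genes not well above background in DCs (Cxcl5, Cxcr1, Cxcr3, Il12a) are not bounds.

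Of 26 receptors for microbial products, 12 were higher and 6 were lower, with 2 to 3 lower when any single array was left out. Tlr2 and its partners Tlr6 and Tlr1 were higher by 1.38 ± 0.14, 1.11 ± 0.13 and 0.82 ± 0.17, as were Nod1 (1.58 ± 0.12) and the lectins Clec4e (2.06 ± 0.09) and Clec4d (1.62 ± 0.24), which sense mycobacterial and fungal lipids. The intracellular receptors Tlr9 (-0.55 ± 0.15), Nod2 (-0.64 ± 0.09) and Tlr12 (-0.84 ± 0.19) were lower, whereas Tlr7 was higher by 0.64 ± 0.13. Tlr4, the endotoxin receptor, differed by 0.40 and did not pass. Of 26 interferon-stimulated genes, 10 were lower and 5 were higher, 7 and 1 of them by at least 2-fold. With any single array left out, 3 to 5 were higher. Mx1, which blocks influenza virus, stood at 3.02 and 2.90 against 4.91 and 5.04 (-2.02 ± 0.10), and Ifit3, Mx2, Usp18, Bst2 and Isg15 differed by -2.15, -2.05, -1.66, -1.63 and -1.42. Cmpk2 was higher, at -0.05 and -0.01 against -1.25 and -1.47 (1.33 ± 0.10), as were Oas2 and Irf7 by 0.80 and 0.48, and Rsad2 (-0.02) and Ifit2 (0.36) did not pass. The list thus leaned lower, with a median difference of -0.27 against -0.04 over all genes tested, but held genes called in both directions.

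Of 25 adhesion genes, 8 were higher and 9 were lower, with 4 to 7 higher and 6 to 8 lower when any single array was left out. Itgb3, which pairs with the platelet integrin chain Itga2b, was higher by 3.26 ± 0.12, and Icam2 by 1.76 ± 0.09. Itgb7, an integrin chain of gut homing, stood at 3.17 and 2.99 against 4.92 and 4.72 (-1.74 ± 0.11), Cdh1, E-cadherin, differed by -1.27 ± 0.08, and Itgad was not well above background in 6G- BM-MDSC and was higher in DCs by at least 2.30-fold. Of 19 metalloproteases and inhibitors, 6 were higher and 4 were lower. Besides Mmp9, Mmp2 and the collagenase Mmp8 were higher by 1.20 ± 0.10 and 1.04 ± 0.16, and Mmp12, the macrophage elastase, was lower (-0.99 ± 0.09).

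Genes of cell division differed little between cultures of 4 and 8 days. Beside each count of this paragraph stand the 15% of all genes tested that were higher and the 17.8% that were lower. Of 28 genes of DNA replication, 6 were higher, 1 was lower and none reached 2-fold, with a median of 0.13. Cdc45, of the replicative helicase, was higher by 0.74 ± 0.13 and Pola1, a polymerase subunit, was lower (-0.42 ± 0.11), while Pcna (0.09), Rrm2 (0.01) and Mcm3 (-0.10) did not pass. Of 28 genes of mitosis, 4 were higher and 0 lower. Mki67, which encodes Ki-67, stood at 5.44 and 5.42 against 5.16 and 4.87 (0.41 ± 0.12, adjusted p = 0.0499), Kif11, a spindle motor, was higher by 0.75, and Top2a (0.08), Ccnb1 (0.09) and Birc5 (0.06) did not pass. When any single array was left out, 0 to 2 genes of replication and 1 to 2 of mitosis were higher. Of 22 glycolysis genes, 1 was higher and 3 were lower. Hk3, a hexokinase of myeloid cells, was higher by 1.67 ± 0.12 and Aldoc, an aldolase, was lower (-1.46 ± 0.15). Of 25 genes of oxidative phosphorylation 6 were higher, of 26 ribosomal protein genes 1 was higher and 6 were lower, and none of these reached 2-fold; without any single array 1 to 3 of the first and 1 to 3 lower ones of the second passed, and other processing gave 3 to 11 and 1 to 12. Of 24 immediate early, heat shock and stress genes, which also respond to cell handling, 8 were higher and 3 were lower, led by Hspa1a at -0.05 and 0.73 against -1.93 and -1.44 (2.03 ± 0.31). Between 1 and 4 of them were higher when any single array was left out.

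Markers of other marrow lineages moved with the groups. Of 15 megakaryocyte and platelet genes, 13 were higher and 0 lower, and their summed level, on a linear scale in units of the 75th percentile, was 129.6 to 139.6 in 6G- BM-MDSC and 34.7 to 46.1 in DCs. Gp5, a platelet glycoprotein, and Mmrn1, of platelet granules, were not well above background in DCs and were at least 11.3-fold and at least 14.7-fold higher. Of 13 basophil and mast cell genes, 10 were higher and 0 lower, with a summed level of 89.3 to 94.5 against 19.5 to 25.3. Mcpt8, the basophil protease, stood at 5.08 and 5.11 against 2.10 and 1.34 (3.38 ± 0.25). Of 12 eosinophil genes, 4 were higher and 2 lower (summed level 191.0 to 219.1 against 109.7 to 131.6), and Alox15, a lipoxygenase, was among the lower ones (-2.89 ± 0.18). Between 2 and 6 eosinophil genes were higher when any single array was left out. Of 10 erythroid genes, 6 were higher and 0 lower (37.8 to 38.4 against 21.2 to 21.9), with 3 to 5 erythroid genes higher when any single array was left out, while Alas2 and Klf1 were not well above background in any group.

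Of 13 B lineage genes, 6 were higher and 1 was lower, among them Cd79b at 1.46 and 1.14 against -1.97 and -2.29 (3.43 ± 0.16), and their summed level was 10.98 to 11.01 against 15.5 to 17.7. The lower gene was Blnk (-1.29 ± 0.10), and 1 to 2 were lower when any single array was left out. Of 15 T and NK cell genes, 5 were higher and 6 lower (18.6 to 20.1 against 29.0 to 34.5), with 2 to 4 higher when any single array was left out. Nkg7, of cytotoxic granules, was higher by 3.56 ± 0.15. Of 11 plasmacytoid dendritic cell genes, 3 were higher and 7 lower (37.2 to 42.9 against 51.8 to 124.2, where Siglech lacks a value on 1 array of DCs), and Klk1, a kallikrein on this list, differed by -3.55. Of 10 stromal and endothelial genes, 2 were higher and 0 lower (71.7 to 81.8 against 67.6 to 69.9). The part of these cells in the differences of Ppbp, Itgb3, Il6, Kit and other genes they share was not tested.

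Among named genes outside the lists that were well above background in both groups, Fndc5, the precursor of irisin, differed most downwards. It stood at -1.46 and -1.54 against 3.58 and 3.52 (-5.05 ± 0.09, 33.2-fold lower). Cd300e, an activating receptor of monocytes (-4.81 ± 0.18), and Hrh1, the histamine H1 receptor (-4.54 ± 0.17), followed. Klk1b9, Klk1b27, Klk1b3 and Klk1b4, kallikrein genes beside Klk1 on chromosome 7, differed by -3.47 to -3.92, and probes of these near-identical genes can share signal. Dscam, Greb1, Syt9 and Grap differed by -3.66, -3.61, -3.49 and -3.39. Upwards, Ceacam10, Ankrd22, Thy1 and Chil1 differed by 4.52 ± 0.16, 4.35 ± 0.11, 4.25 ± 0.13 and 4.21 ± 0.18. Cavin2, of caveolae, stood at 0.77 and 0.80 against -4.14 and -2.69. Thy1, which encodes CD90, stood at 4.70 and 4.58 against 0.54 and 0.25. The receptors Mrgpra2a and Mrgpra2b differed by 4.36 each, with probes that can share signal. In DCs, Mrgpra2a stood at -4.58 and -4.61 and Mrgpra2b at -4.30 and -4.56, near the background. Both differences were as low as 2.79 in other fits. In all, 645 genes were well above background on both arrays of 6G- BM-MDSC and on neither array of DCs, of which 389 passed the test. The other way there were 128, of which 111 passed. The lowest signal called well above background was -4.80 and -4.82 on the arrays of DCs. On those of 6G- BM-MDSC it was -5.40 and -5.45. A probe at the same level can thus count on one side only, and 645 and 128 do not compare numbers of expressed genes. Scrg1 was higher by at least 52.5-fold, Fhl1 at least 14.2-fold and Kcnk12 at least 9.03-fold. Mb21d2 was at least 9.71-fold higher in DCs, Ppp1r1a at least 8.26-fold and Pianp at least 8.10-fold.

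Several genes that the study named lay highest in 6G- BM-MDSC, with MDSC (conv.) between. The study picked them from these same arrays for high levels in 6G- BM-MDSC, so this order is no separate result. Adgre4, an adhesion receptor, stood at 1.69 and 1.32, at 0.23 and 0.22 in MDSC (conv.) and at -1.84 and -2.35 in DCs (3.61 ± 0.21 against DCs). Cyp26b1, which breaks down retinoic acid, differed from DCs by 3.68 ± 0.22 in 6G- BM-MDSC and by 2.58 in MDSC (conv.), and Ppm1n by 3.86 ± 0.16 and 2.66. A second, dimmer probe of Ppm1n gave -2.21 without passing. H2-Q10, an MHC class Ib gene, differed by -0.31 on its brightest probe (adjusted p = 0.0652), but its 4 probes ran from -0.59 to 4.71, so no direction is given for it. Between 6G- BM-MDSC and MDSC (conv.) themselves, 1 gene was higher (0.00457% of genes) and 2 were lower (0.00915%) at an adjusted p under 0.05 with limma, and 2358 passed an unadjusted p under 0.05. Gstt1, Gstt4, Adgre4, Ppm1n and Cyp26b1, all higher than MDSC (conv.) by value, were not among the 3, with adjusted p between 0.181 and 0.297.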

How the data were processed

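Total RNA of 6 samples was labelled with Cy3 and hybridised to one-colour Agilent mouse arrays. The deposited values are processed intensities that the authors' image software, Agilent Feature Extraction, made by subtracting the background and correcting trends within each array, without scaling between arrays; its version is 10.5.1.1 in the submitters' notes and 10.7.3.1 in the file headers, which name array design 074809. The series' value table, also deposited, differed from these intensities by at most 0.005.

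Control probes and spots marked as outliers or non-uniform (103 to 146 per array) were left out, the spots of a probe averaged, and log2 values set relative to the 75th percentile of their array (560.2 to 633.3). No spot was saturated. A probe was kept if it was well above background on both arrays of at least 1 group (33484 of 56605). Names were updated through RefSeq accessions for 58.3% of probes, and the brightest probe stood for a gene. Groups were compared with limma 3.58.1 in R 4.3.3 on 6 arrays (3 residual and 1.96 prior degrees of freedom), with Benjamini-Hochberg adjustment over 21862 genes. The number of arrays limits the precision, with a median SE of 0.11. Where a group was not well above background on any array, the fold is a lower bound: the mean of the brighter group over the mean, per array, of the higher of the dim probe and the lowest signal called well above background. The test was tried on simulated data with known changes.

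Genes were named by a rule: the 15 largest differences each way among genes above background in both groups, the 8 largest bounds each way, up to 5 members of each list with the largest differences, the genes the study names and those called between both MDSC groups. Other list members in the text were picked after their values were seen. The comparison, lists and rule were chosen with earlier results of these data known. Members without a probe or not well above background in any group were not tested. Some list members are counted but not reported here by name or drawn singly. Promoter windows are RefSeq's, on GRCm38.p6. Alternatives were normexp (offset 50), quantile scaling, every probe or those above background on each array, averaged or single probes, marked spots kept, the value table, only 4 arrays, a replicate block, an intensity-dependent prior, 4-fold, the methods' t-test and leaving out each array.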

Additional observations from a re-analysis of the deposited data

Results flagged for a closer look

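The effects of 6G- BM-MDSC and of MDSC (conv.), each against DCs, differed for 3 genes in the test of the difference itself, which is the comparison of both MDSC groups. Tmprss11f, a membrane serine protease, stood at -4.56 and -4.64 in 6G- BM-MDSC, just above background, and was not well above background in MDSC (conv.) or DCs, a difference between the MDSC groups of 2.96 (adjusted p = 0.00462) and at least 1.16-fold against DCs. Trim15 differed by -3.80 (adjusted p = 0.0189) and the transcript AK053624 by -4.62 (adjusted p = 0.0178), both well above background in MDSC (conv.) alone, on both of its arrays. All 3 lay near the background, and 0 genes were called when probes had to be above background on all arrays.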

How the results depend on the processing

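The number of genes called against DCs fell from 7171 to between 3737 and 4827 with each of the 4 arrays left out in turn. It was 3737 without 6G- BM-MDSC replicate 2, 3958 without DCs replicate 1 and 3980 without DCs replicate 2. Each of these fits has fewer residual degrees of freedom and a lone array that is assumed to vary like the other groups. Of the 7171, between 3462 and 4266 were called in the same direction. Those of at least 2-fold ranged from 1870 to 2248 against 2173. Without a filter on dim probes, 11950 were called (3198 higher, 8752 lower), and with the methods' t-test and Benjamini-Hochberg 66, of which 33 were at least 2-fold and 3 were list members. At least 2-fold differences numbered 1171 with normexp, which raises dim signals, and 667 differed by at least 4-fold. Against 3 genes called between both MDSC groups, 9 were called with normexp, 1 without the filter, 0 with the stricter filter, 64 with an intensity-dependent prior, 0 with the methods' t-test after Benjamini-Hochberg and 1782 without it, and 0 to 9 with an array left out. The cause of these changes was not tested.

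Quantile normalization turned the share of higher and lower calls from 3282 and 3889 to 3649 and 3477. With normexp Gapdh differed by -0.33 and AK053624 by 0.16, and with the mean of its probes H2-Q10 by 1.65. No other named gene that passed in either fit changed sign under the alternatives that gave 1 value per gene. The numbers of called list members stayed within 1.5 times 407 under every alternative but the methods' adjusted t-test, between 278 and 466. Same-numbered samples deviated together with a correlation of 0.0416 to 0.125. With 2 samples a group, this cannot show whether they shared a mouse, a culture or a batch. With the replicate block 6858 genes were called against DCs, 2185 of them at least 2-fold, 3 between both MDSC groups and 398 list members. Dim genes, whose signal lies near the background, bound what can be said of folds.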
